A study of Mus musculus with 10 samples.

Results

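Fut4, Fut7, Fut8, Fut10, Fut11, Pofut1 and Pofut2 are the fucosyltransferase genes described here, 7 of the 32285 genes in the matrices. They are the members of the family with more than a few transcripts in these libraries, and were chosen with earlier results of these data known. Each was measured as unique molecular identifiers (UMIs, 1 per captured transcript) summed over the cell barcodes of a class in each library and divided by the class total and multiplied by 1000000 (counts of UMIs scaled in this way are written CPM).

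Fucosyltransferases move L-fucose from its activated form, GDP-fucose, onto glycans and proteins. Fut4 and Fut7 work in the Golgi and add α1,3-linked fucose at the ends of glycan chains, which makes Lewis x and sialyl Lewis x, and Fut7 is known in leukocytes for building the ligands that selectins bind during entry into tissue. Fut8 adds the α1,6-linked core fucose at the base of N-glycans, including those of antibodies and T cell receptors. Pofut1 and Pofut2 work in the endoplasmic reticulum and put fucose directly on proteins, on EGF-like repeats such as those of Notch and on thrombospondin repeats, respectively. Fut10 and Fut11 are less studied members of the family.

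The 5 gene expression libraries came from SW1 melanomas grown in female C3H/HeJ mice aged 4 to 6 weeks and sorted for CD45, the protein encoded by Ptprc that marks leukocytes. They were control at day 0, before treatment, and control or L-fuc at days 7 and 21, where L-fuc mice drank water with L-fucose and control mice did not. The labels give the concentration as 100 mM in one field and 100 nM in another, and 5 or 6 mice per arm. Each library was 1 pool of mice (3 at day 0), so no condition has a replicate. Differences between conditions are therefore given as ratios with exact 95% intervals that cover counting error only, with no p, while classes of cells were tested across the 5 libraries.

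Barcodes with at least 500 genes and at most 10% mitochondrial UMIs numbered 1470 for control day 0, 17897 for control day 7, 9034 for L-fuc day 7, 1573 for control day 21 and 1182 for L-fuc day 21, a library order kept below. They were split into 3911 T cells (2 or more UMIs of Cd3e, Cd3d and Cd3g), 4568 macrophages (10 or more of C1qa, C1qb and C1qc), 12496 tumor barcodes (Sox10 present, Ptprc absent) and 10181 others. The class sums ran from 557059 to 69371045 UMIs, the lowest being T cells at control day 21, which had 67 barcodes, while L-fuc day 21 had 50. Barcodes that met more than 1 class rule took the first in the order above. Leaving these out took T cells from 477, 1497, 1820, 67 and 50 barcodes to 393, 968, 1292, 54 and 34. At control day 7 their sum went from 9919755 to 4517664 UMIs. A T cell receptor sequence was found for 44.0 to 79.2% of T cell barcodes, against at most 1.13% of macrophage and 0.266% of tumor barcodes. Tumor barcodes made up 17.7 to 48.3% of kept barcodes despite the sort. Fewer expressing cells and less RNA per cell cannot be told apart in these sums.

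A pair of library features moved with the results below. First, the level of 8 tumor markers (S100b, Mia, Erbb3, Sparc, Pmel, Mlana and Dct among them) in T cells was 2.33, 38.8, 16.8, 9.47 and 21.4% of the level in tumor barcodes, and in macrophages it was 1.35, 31.9, 17.1, 3.40 and 5.62%, highest in both at control day 7. Second, at L-fuc day 21 barcodes with at least 3 UMIs of Jchain and Mzb1, genes of antibody-secreting cells, made up 26% of T cells, 19.8% of macrophages and 40.2% of other barcodes. Some results that these features touch are given with and without such barcodes, alternatives chosen after the values were seen. The others are given with all barcodes of the class left in. Barcode sequences shared between pairs of libraries numbered 2 to 222, the most between control and L-fuc at day 7, where they were 2.46% of the kept L-fuc barcodes.

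All 7 members were present in the matrices, with totals over kept barcodes of 278 UMIs for Fut4, 326 for Fut7, 8521 for Fut8, 1139 for Fut10, 4801 for Fut11, 4623 for Pofut1 and 18810 for Pofut2. The other mouse fucosyltransferases were nearly absent, with 16 UMIs of Fut1, 2 of Fut2, 1 of Fut9 and 23 of Sec1. Of the Fut1 UMIs, 9 lay in the B cell gate described below.

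The start regions of the 3 members called against tumor in both immune classes are shown, since the class results below turn on them. The sequences are from RefSeq (GRCm38.p6), from 250 bases before to 50 after a transcript start, and 6 of the 7 members have an entry. Capitals mark matches on either strand, with overlaps allowed. The motifs searched were the GC box with the letters GGGCGG, the CCAAT box, an ETS-type motif with the letters GGAAGT and a GATA-type motif with the letters AGATAA. The TATA box, searched as TATAAA, and an AP-1 type motif, searched as TGANTCA, were the remaining ones. Fut4 lies on the minus strand (chr9:14752073-14752372), both Fut7 starts on the plus strand (chr2:25422992-25423291 and chr2:25423444-25423743), and Pofut2 on the plus strand (chr10:77259050-77259349).
Fut4: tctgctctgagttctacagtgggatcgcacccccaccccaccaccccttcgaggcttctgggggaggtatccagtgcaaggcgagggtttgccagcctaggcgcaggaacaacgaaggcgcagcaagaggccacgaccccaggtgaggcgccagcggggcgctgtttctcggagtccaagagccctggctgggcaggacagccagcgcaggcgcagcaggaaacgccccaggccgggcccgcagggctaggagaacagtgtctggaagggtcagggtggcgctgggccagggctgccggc
Fut7, upstream start: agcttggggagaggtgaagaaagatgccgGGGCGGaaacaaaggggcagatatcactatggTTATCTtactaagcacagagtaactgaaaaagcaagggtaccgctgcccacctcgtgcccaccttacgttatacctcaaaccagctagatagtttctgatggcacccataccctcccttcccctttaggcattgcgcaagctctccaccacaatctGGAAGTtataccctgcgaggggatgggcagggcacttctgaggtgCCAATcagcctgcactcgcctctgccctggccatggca
Fut7, downstream start: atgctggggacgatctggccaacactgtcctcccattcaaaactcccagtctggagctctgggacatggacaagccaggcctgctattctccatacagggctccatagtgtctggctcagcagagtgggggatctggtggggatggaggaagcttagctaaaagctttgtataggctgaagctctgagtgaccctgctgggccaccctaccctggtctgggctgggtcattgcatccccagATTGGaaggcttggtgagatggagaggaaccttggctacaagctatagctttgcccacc
Pofut2: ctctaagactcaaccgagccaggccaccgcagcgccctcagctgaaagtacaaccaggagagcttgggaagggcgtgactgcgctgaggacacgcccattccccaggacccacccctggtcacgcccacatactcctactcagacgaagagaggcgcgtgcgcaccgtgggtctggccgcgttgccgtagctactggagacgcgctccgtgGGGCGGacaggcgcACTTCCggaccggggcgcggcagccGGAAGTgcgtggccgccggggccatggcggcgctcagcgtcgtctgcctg

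The Fut4 window held 18 CpG and none of the motifs searched. It lies wholly inside the single Fut4 exon annotated in GENCODE (chr9:14748320-14752393), so the bases before that annotation's start were not searched. The upstream Fut7 window held 8 CpG and 1 match each to the GC box, the CCAAT box, the ETS-type and the GATA-type motif, and the downstream one held 1 CpG and 1 CCAAT box. The Pofut2 window held 32 CpG, 1 GC box and 2 ETS-type matches. Over all 32851 start regions in the table the median was 7 CpG, and 35.7% held the GC box, 37.4% the CCAAT box, 23.8% the ETS-type, 11.2% the GATA-type, 13.6% the TATA and 7.81% the AP-1 type motif. A match describes the letters in the window and is no evidence that a factor binds there.

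Between classes, members were tested with edgeR's quasi-likelihood test over 15 sums (3 classes in each of 5 libraries, library as a block), with adjusted p from Benjamini-Hochberg over 12932 genes and log2 fold changes on the trimmed-mean scaling. All 7 members passed the filter on low counts, Fut4 and Fut7 through the immune cell sums in which they are high, so their values against tumor are given without the filter as well and the counts of calls support nothing. In T cells against macrophages 1 member was called, lower in T cells, where 34% of all genes were called, 15.7% higher in T cells and 18.3% higher in macrophages. Of T cells against tumor 2 were higher and 1 lower, where 63.6% of genes were called, 33.9% higher in T cells and 29.7% higher in tumor. Macrophages against tumor had 2 higher and 2 lower, where 69.8% were called, 35.5% higher in macrophages and 34.3% higher in tumor. The shares of members called were below these shares in every contrast. Scaling by total UMIs instead gave median log2 fold changes of all genes of 0.32, -0.27 and -0.59 in the 3 contrasts, against 0.04, 0.03 and -0.0040. With it 73.0, 37.3 and 27.0% of calls were higher, against 46.1, 53.3 and 50.8% on the main scaling.

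Fut4, at chr9:14748320-14752393 (GRCm38, minus strand, a single exon), was higher in macrophages than in T cells and nearly absent from tumor barcodes. Macrophages held 24, 28, 45, 30 and 33 UMIs, or 5.85, 2.86, 3.65, 4.01 and 5.71 CPM. T cells held 3, 14, 19, 0 and 1 UMIs, at 0.79, 1.41, 1.26, 0 and 0.962 CPM. Every macrophage sum was above every T cell sum, though the T cell values at day 21 rested on 1 UMI in all. Tumor barcodes held 0, 10, 0, 0 and 1 UMIs, or 0.0829 CPM over all libraries. Fut4 was lower in T cells than in macrophages by a log2 fold change of -2.12 ± 0.55 (SE; edgeR adjusted p = 0.0102). Macrophage sums are among those through which Fut4 passed the filter on low counts, so this p-value is no independent support. Against tumor it was higher in macrophages by 6.12 ± 0.73 (edgeR adjusted p = 5.60e-06) and in T cells by 4.00 ± 0.79 (edgeR adjusted p = 0.000519). With no filter on low counts these were 6.07 (edgeR adjusted p = 1.91e-06) and 3.92 (edgeR adjusted p = 0.00039). Fut4 was still chosen as a member for its UMIs in these libraries, nearly all outside tumor barcodes. The p-values against tumor are therefore no independent support. The size of these folds rests on 11 tumor UMIs in all. Macrophage markers in T cells were at 16.5 to 37.5% of their macrophage level. Over all libraries Fut4 was 1.22 CPM in T cells and 4.05 in macrophages. The part of macrophage RNA in the T cell level of Fut4 was not tested.

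Fut7 (chr2:25423267-25426374, plus strand) was found in both immune classes. In T cells it had 13, 25, 90, 11 and 3 UMIs, or 3.42, 2.52, 5.95, 19.7 and 2.89 CPM. In macrophages it had 8, 9, 36, 36 and 17 UMIs, at 1.95, 0.920, 2.92, 4.82 and 2.94 CPM. The T cell level was above the macrophage level in 4 of 5 libraries, and the ranges overlapped. Tumor barcodes had 0, 7, 3, 0 and 1 UMIs. The log2 fold change of T cells over macrophages was 0.83 ± 0.43 and missed the threshold (edgeR adjusted p = 0.166). Against tumor, Fut7 was higher by 5.89 ± 0.64 in T cells (edgeR adjusted p = 6.18e-06) and by 5.06 ± 0.64 in macrophages (edgeR adjusted p = 1.33e-05), again on 11 tumor UMIs in all. With no filter on low counts these were 5.81 (edgeR adjusted p = 1.73e-06) and 4.99 (edgeR adjusted p = 5.37e-06). As for Fut4, the choice of Fut7 as a member rested on UMIs nearly all outside tumor, so the p-values against tumor are no independent support. With macrophage markers in T cells at 16.5 to 37.5% of their macrophage level, leaving out barcodes that met more than 1 class rule gave 1.23 for T cells over macrophages (adjusted p = 0.0474), past the threshold.

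**Figure D1:**
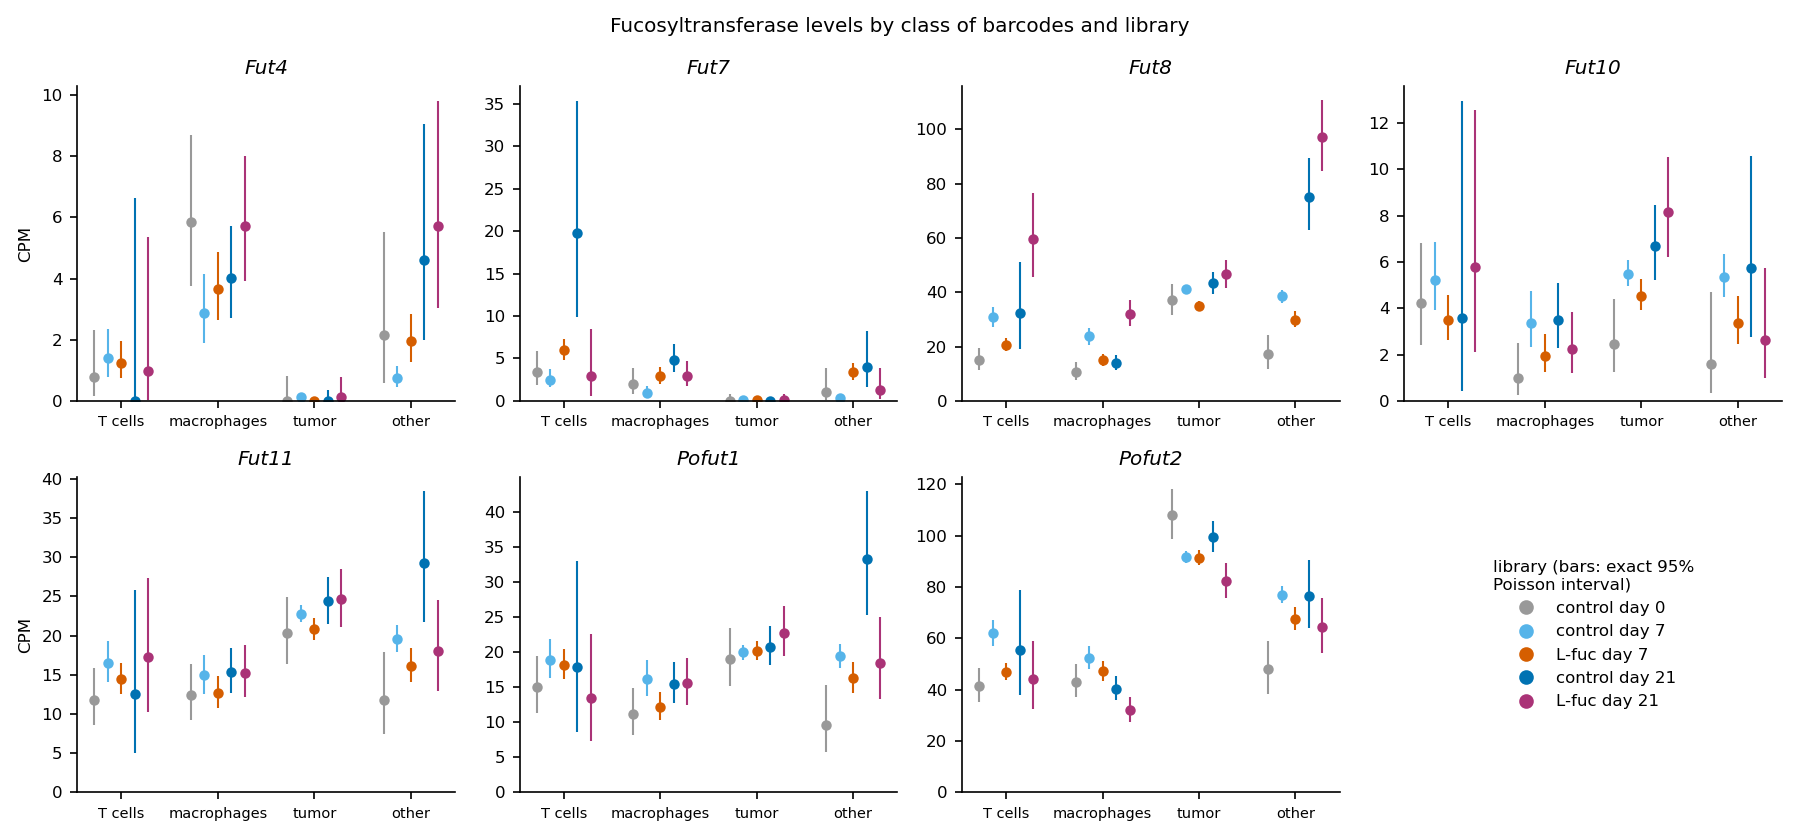
Level of each member in CPM (vertical axis, linear, with its own range for each gene) in each class, with a point for each library, with exact Poisson 95% intervals for counting error. Fut4 and Fut7 sit near 0 in tumor barcodes, and Pofut2 is higher in tumor barcodes than in T cells or macrophages in every library.

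Within T cells, pooled over libraries, Fut7 was 7.41 CPM in Cd4 barcodes without Foxp3, 8.09 in those with Foxp3 (the regulatory T cell factor), 4.39 in Cd8a barcodes and 3.43 in the rest. Among other barcodes, gates set on marker genes gave a wider range. The gate on Cpa3, Hdc and Ms4a2, genes of mast cells and basophils, had the highest Fut7 level, 43.3 CPM (30.6 to 59.4, 38 UMIs in 167 barcodes). All 38 UMIs lay in the 106 of these barcodes with Mcpt8, a basophil protease (61.8 CPM), and the 61 without it had 0 UMIs, which allows up to 14.0 CPM (exact Poisson upper bound). Mast cell genes were also found in the barcodes with Mcpt8, with Mcpt4 at 773, Cma1 at 1600 and Kit at 176 CPM. In those without Mcpt8 they were at 4433, 4637 and 266 CPM. L-fuc day 7 gave 96 of the 106 barcodes and 30 of the 38 UMIs. Which of these cell types held the Fut7 UMIs was not tested. The split by Mcpt8 was made after the values were seen. The gate for conventional dendritic cells held 7 UMIs (11.0 CPM), natural killer cells were at 1.80, and the B cell, plasmacytoid dendritic cell, neutrophil and Fscn1-Ccr7 mature dendritic cell gates had none.

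Levels in all other barcodes together ranged between libraries from 0.738 to 5.74 CPM for Fut4, 0.388 to 4.02 for Fut7, 17.2 to 97.1 for Fut8, 1.61 to 5.74 for Fut10, 11.8 to 29.3 for Fut11, 9.68 to 33.3 for Pofut1 and 47.9 to 77.0 for Pofut2. Tumor markers there were at 15.8, 77.6, 59.8, 109 and 105% of their tumor level, and the part of such barcodes in these ranges was not tested.

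Fut4 UMIs were few in every gate, and their levels ranged widely. It was 11.0 CPM in conventional dendritic cells, 11.3 in plasmacytoid dendritic cells and 7.98 in neutrophils (2 UMIs), against 0.778 in the mature dendritic cell gate and 0.30 in natural killer cells. T cell subsets ran from 1.03 to 1.73.

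**Figure D2:**
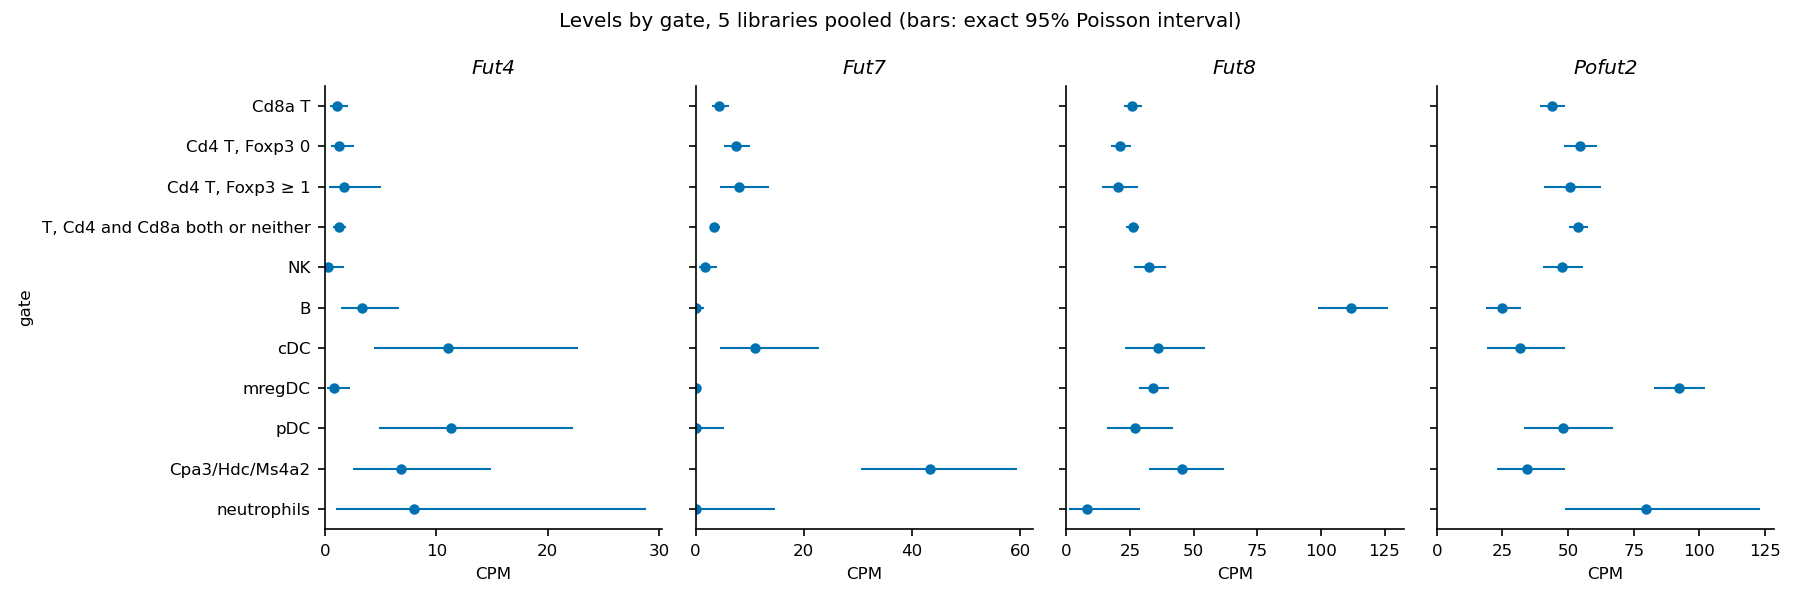
Level of Fut4, Fut7, Fut8 and Pofut2 in CPM (horizontal axes) in T cell subsets and in gates of the other barcodes, pooled over the 5 libraries, with exact Poisson 95% intervals. Fut7 is highest in the Cpa3, Hdc and Ms4a2 gate (43.3) and Fut8 in the B gate (112).

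Sialyl Lewis x assembly genes, the glycosyltransferases and sulfotransferases that build the chain Fut4 and Fut7 act on, differed in both directions. Of 13 tested of 16 listed, 4 were higher and 3 lower in T cells than in macrophages, 6 and 4 in T cells than in tumor, and 7 and 4 in macrophages than in tumor, with median log2 fold changes of -0.14, 0.01 and 0.46. In these contrasts 34, 63.6 and 69.8% of all genes were called. Genes named from this list and the lists below were picked among called genes for large fold changes in these same data. Their p-values are therefore no independent support, and their values without the filter on low counts are not given. Chst2, a sulfotransferase of selectin ligands, was higher in T cells than in macrophages by 3.96 ± 0.53 (edgeR adjusted p = 0.000212). B3gnt8, which extends lactosamine chains, was higher in macrophages than in tumor by 5.87 ± 0.29 (edgeR adjusted p = 1.3e-07), as was the galactosyltransferase B4galt1 by 2.24 ± 0.15 (edgeR adjusted p = 4.72e-07).

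Selectins and their carriers had 6 of 10 listed genes tested. Against tumor, 5 were higher and 1 lower in T cells and 4 were higher and 2 not called in macrophages, where 33.9 and 35.5% of all genes were higher, while 1 of 6 was called between T cells and macrophages. Selplg, the P-selectin ligand that Fut7 modifies, was higher than in tumor by 7.28 ± 0.60 in T cells (edgeR adjusted p = 1e-05) and 6.99 ± 0.60 in macrophages (edgeR adjusted p = 9.73e-06).

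Fut8 (chr12:77238125-77476338, plus strand) was found in every class. Tumor barcodes were at 37.1, 41.0, 35.0, 43.2 and 46.6 CPM, a narrow range. T cells were at 15.0, 30.7, 20.7, 32.3 and 59.7, and macrophages at 10.7, 23.7, 15.0, 14.0 and 32.0. Macrophages were below tumor in all 5 libraries and T cells in 4, L-fuc day 21 being the exception. The log2 fold change of macrophages against tumor was -0.61 ± 0.18 (edgeR adjusted p = 0.0120), a call that was lost without the library block (adjusted p = 0.142) and without control day 21 (adjusted p = 0.0507). T cells against tumor gave -0.24 ± 0.19 (edgeR adjusted p = 0.287), and T cells against macrophages 0.36 ± 0.19 (edgeR adjusted p = 0.182), neither called. Without the Jchain and Mzb1 barcodes, T cells were lower than tumor by a log2 fold change of -0.52 (adjusted p = 0.00310) and higher than macrophages by 0.35 (adjusted p = 0.0479), both past the threshold.

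The B gate, set on B cell genes with Cd79a and Cd79b among them, had the highest Fut8 level of all gates, 112 CPM (98.9 to 126). By library it was 25.0, 59.0, 58.4, 164 and 181, lowest at day 0 and highest in both day 21 libraries. The gate held 126, 25, 21, 16 and 34 barcodes, of which 45, 11, 15, 14 and 32 had at least 3 UMIs of Jchain and Mzb1. Together these 117 barcodes were at 130 CPM (263 UMIs) and the 105 others at 11.2 (4 UMIs). The part of this makeup in the order of the libraries was not tested. The mast gate was at 45.5, natural killer cells at 32.4, Cd8a T cells at 26.0 and Cd4 T cells at 21.1, all with lower levels than the B gate.

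**Figure D3:**
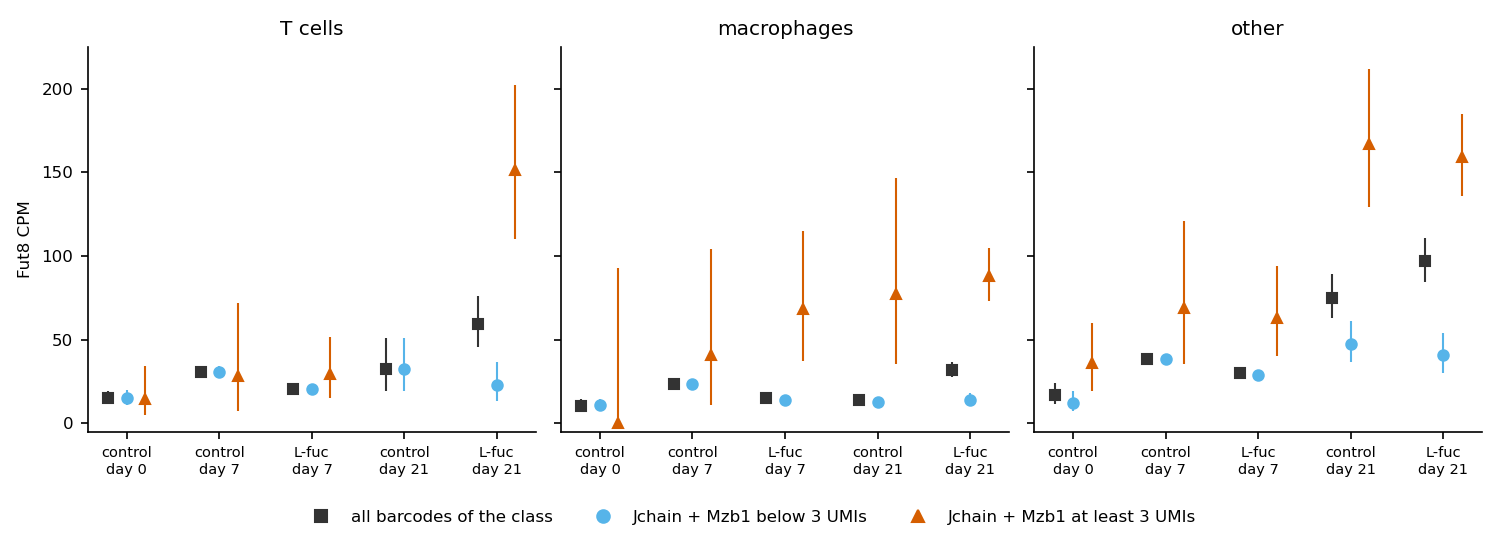
Fut8 level in CPM (vertical axis) in all barcodes of T cells, macrophages and other, in those with at least 3 UMIs of Jchain and Mzb1 and in the rest, for each library, with exact Poisson 95% intervals. At L-fuc day 21 the macrophage barcodes with these UMIs are at 88.0 and the rest at 14.2.

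N-glycan branching genes, which act before or beside Fut8, were all tested (12 of 12). In T cells against macrophages 1 was higher and 5 lower, against tumor 5 and 3, and in macrophages against tumor 7 and 3, with medians of -0.36, 0.09 and 0.98. The shares of all genes called there were 34, 63.6 and 69.8%. Mgat5, which starts the β1,6 branch, was higher than in tumor by 6.77 ± 0.51 in macrophages (edgeR adjusted p = 9.42e-07) and 5.42 ± 0.53 in T cells (edgeR adjusted p = 6.94e-06). The mannosidase Man1a was higher in T cells than in tumor by 5.83 ± 0.44 (edgeR adjusted p = 2e-06). Mgat3, which adds the bisecting residue, was lower in macrophages than in tumor by a log2 fold change of -2.26 ± 0.41 (edgeR adjusted p = 0.000436).

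Fut10 (chr8:31187331-31261738, plus strand) was low in every class. T cells were at 4.21, 5.24, 3.50, 3.59 and 5.77 CPM, macrophages at 0.975, 3.37, 1.95, 3.48 and 2.25, and tumor barcodes at 2.46, 5.49, 4.55, 6.70 and 8.17. None of its 3 contrasts was called, with 0.73 ± 0.28 for T cells against macrophages (edgeR adjusted p = 0.0654) and -0.59 ± 0.25 for macrophages against tumor (edgeR adjusted p = 0.0515), both close to the threshold. T cells against macrophages was past it under some settings given in the closing section.

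Fut11 (chr14:20694968-20701016, plus strand) varied little. It ran from 11.9 to 17.3 CPM in T cells, 12.4 to 15.4 in macrophages and 20.4 to 24.6 in tumor barcodes, so that every tumor value was above every immune value on the scale of total UMIs. On the trimmed-mean scaling the differences were not called, at -0.30 ± 0.12 for T cells against tumor (edgeR adjusted p = 0.0531) and -0.09 ± 0.11 for macrophages against tumor (edgeR adjusted p = 0.514). Under scaling by total UMIs these were -0.60 (adjusted p = 0.000513) and -0.67 (adjusted p = 9.08e-05), and without tumor-marker barcodes -0.46 (adjusted p = 0.00294) and -0.26 (adjusted p = 0.0361). Fut11 is spanned by the antisense gene 6230400D17Rik, and whether counting used strand is not given in the sources used here.

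Pofut1 (chr2:153241533-153270247, plus strand) was at 13.5 to 19.0 CPM in T cells, 11.2 to 16.2 in macrophages and 19.0 to 22.8 in tumor barcodes, with every tumor value above every immune value on the scale of total UMIs. On the trimmed-mean scaling no contrast was called. Its log2 fold changes were 0.00 ± 0.14, 0.05 ± 0.14 and 0.05 ± 0.13, with signs that turned under several settings. Scaling by total UMIs gave -0.25 for T cells and -0.54 for macrophages against tumor. Among gates it was 26.9 in plasmacytoid dendritic cells and 7.55 in B cells.

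Notch pathway and O-fucose elongation genes had 14 of 20 tested. In T cells against macrophages 1 was higher and 4 lower, against tumor 3 and 4, and in macrophages against tumor 5 and 3, with medians of -0.26, -0.21 and 0.16. Over all genes the shares called were 34, 63.6 and 69.8%. Mfng and Lfng, the Fringe enzymes that extend the fucose added by Pofut1, were higher in T cells than in tumor by 4.77 ± 0.36 (edgeR adjusted p = 2.3e-06) and 2.68 ± 0.25 (edgeR adjusted p = 7.92e-06). Notch1 was higher in T cells than in macrophages by 0.72 ± 0.14 (edgeR adjusted p = 0.00298).

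Pofut2 (chr10:77259218-77269575, plus strand) was lower in both immune classes than in tumor. Tumor barcodes were at 108, 91.7, 91.5, 99.5 and 82.4 CPM, T cells at 41.3, 62.0, 47.0, 55.6 and 44.3, and macrophages at 43.1, 52.4, 47.1, 40.4 and 32.0. No tumor value overlapped an immune value. The log2 fold changes against tumor were -0.62 ± 0.09 in T cells (edgeR adjusted p = 0.000146) and -0.55 ± 0.09 in macrophages (edgeR adjusted p = 0.000229), and T cells did not differ beyond the threshold from macrophages (-0.08 ± 0.09, edgeR adjusted p = 0.577). Among gates, the B gate was at 24.7 CPM and the mature dendritic cell gate at 92.1, near the tumor level. By library the latter was at 48.1, 93.9, 91.5, 128 and 70.0 on 5 to 124 barcodes each, the most at control day 7. The tumor-marker level of this gate was not measured, so the part of tumor RNA in its Pofut2 level was not tested.

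Thrombospondin repeat proteins, the substrates of Pofut2, and B3glct, which extends its fucose, had 14 of 17 tested. Between T cells and macrophages 1 was higher and 3 lower, T cells against tumor had 3 higher and 9 lower, and macrophages against tumor 3 and 8, with medians of 0.09, -1.49 and -1.40. Of all genes, 34, 63.6 and 69.8% were called, with 29.7% lower in T cells than in tumor and 34.3% lower in macrophages than in tumor. Cfp, properdin, was higher in macrophages than in tumor by 6.18 ± 0.39 (edgeR adjusted p = 5.68e-07) and Spon1 by 6.37 ± 0.62 (edgeR adjusted p = 2.97e-06). Adamts1, a secreted protease, was lower by a log2 fold change of -3.34 ± 0.64 (edgeR adjusted p = 0.00143).

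The 8 genes of GDP-fucose supply, which make, carry or recycle the donor, were all tested, and 0 were higher and 3 lower in T cells than in macrophages, 3 and 2 against tumor, and 4 and 2 in macrophages against tumor, with medians of 0.02, 0.18 and 0.72. Again 34, 63.6 and 69.8% of all genes were called in these contrasts. Fuca2, an α-fucosidase, was higher in macrophages than in tumor by 3.66 ± 0.15 (edgeR adjusted p = 9.23e-08). Fcsk, fucokinase, which activates free L-fucose, was lower there by a log2 fold change of -1.46 ± 0.21 (edgeR adjusted p = 0.000119).

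**Figure D4:**
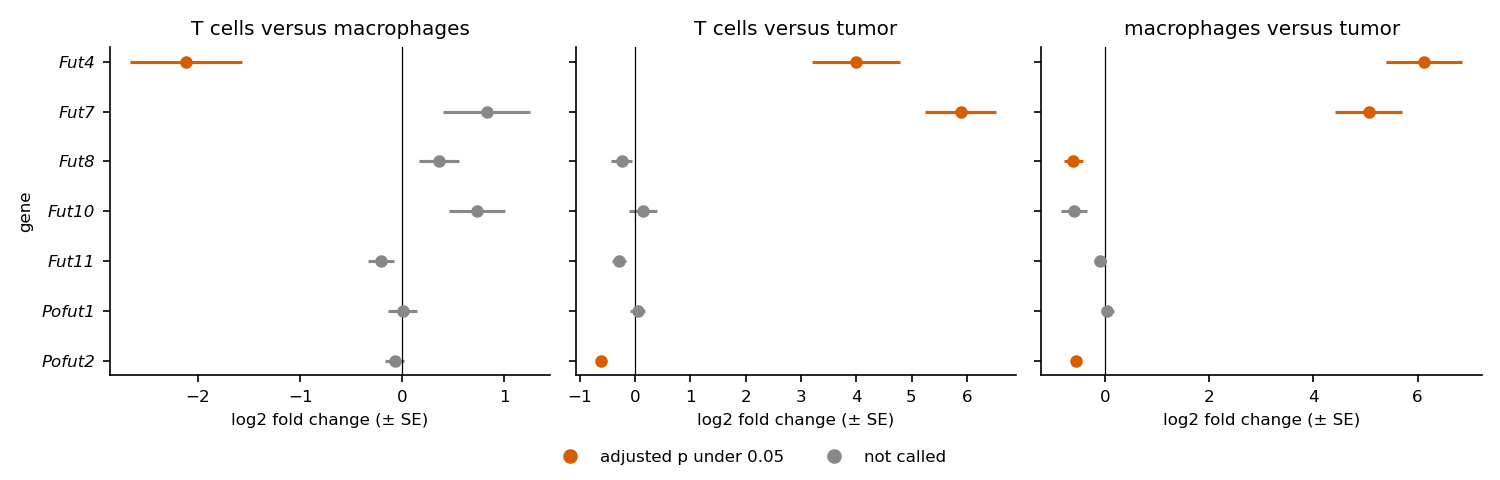
edgeR log2 fold changes of the 7 members with their standard errors for the 3 class contrasts on trimmed-mean scaling. Fut4 and Fut7 lie between 4.00 and 6.12 in both immune against tumor contrasts, and Fut10, Fut11 and Pofut1 were not called in any contrast.

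L-fuc against control at day 7 addressed whether oral L-fucose goes with a change in the enzymes that use it. Members had at least 20 UMIs in the pair of libraries in 7 of 7 cases in T cells, macrophages and other barcodes and 5 of 7 in tumor. Fut7 was past 2-fold in T cells and macrophages, and Fut4 and Fut7 in other barcodes, with no member past 2-fold lower and none past 2-fold in tumor. Among all genes with 20 UMIs or more, 12.3% were past 2-fold in T cells, 8.15% in macrophages, 7.12% in tumor, 17.1% in other and 13.6% in all kept barcodes. The median log2 ratio of all genes was -0.13 in T cells, -0.20 in macrophages and -0.14 in other barcodes.

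Fut7 was higher with L-fuc at day 7 in 3 classes. The ratio was 2.36 (1.50 to 3.84) in T cells. Without T cell and macrophage barcodes that carried more than 1 tumor-marker UMI it was 1.64 (0.886 to 3.30), an interval that includes 1, with 62.5% of control T cell barcodes left out. In macrophages it was 3.17 (1.50 to 7.49), and 10.0 (1.67 to 409, 31 against 1 UMIs) without such barcodes. In other barcodes it was 8.69 (4.32 to 19.3). There the mast gate held 134 barcodes with L-fuc and 15 in control, and Fut7 inside it was 41.9 and 51.7 CPM (ratio 0.810, 0.252 to 4.15). Without that gate the ratio was 4.36 (1.67 to 12.6), on 15 against 7 UMIs. T cell markers in other barcodes were at 235 CPM with L-fuc and 87.2 in control, and tumor markers at 59.8 and 77.6% of their tumor level. Other barcodes were not filtered on tumor markers, and the part of this makeup in the ratio was not tested.

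Among T cell subsets, with tumor-marker barcodes left in, Fut7 was higher with L-fuc in all 4 by value. Cd8a barcodes were at 4.51 against 2.30 CPM (ratio 1.96, 0.737 to 6.07), Cd4 barcodes without Foxp3 at 8.82 against 5.33 (ratio 1.65) and those with Foxp3 at 11.7 against 7.84 (ratio 1.50). Of these 4, the remaining T cells alone had an interval that excluded 1 (ratio 2.72, 1.31 to 6.18). Per 1000 UMIs of T cell markers, which also differed between libraries, Fut7 was 2.40, 4.20, 5.44, 12.7 and 4.32 UMIs in library order, so day 7 differed by less on that scale (5.44 with L-fuc, 4.20 in control).

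Fut8 was lower with L-fuc at day 7, at a ratio of 0.675 (0.575 to 0.793) in T cells, 0.633 (0.519 to 0.771) in macrophages, 0.776 in other and 0.853 (0.800 to 0.909) in tumor barcodes. Without tumor-marker barcodes the ratios were 0.839 (0.631 to 1.13) in T cells and 0.900 (0.613 to 1.35) in macrophages, both including 1. The same held for Pofut2 in T cells, 0.758 (0.679 to 0.846), and 0.905 (0.736 to 1.12) without them. Fut10 in T cells was 0.668 (0.447 to 0.999), and 1.12 without them, a turn of direction. Pofut1 was 0.758 in macrophages and 0.962 in T cells, both with tumor-marker barcodes left in. In tumor barcodes, Fut10 was 0.829 and Fut11 0.912, while Pofut1 was 1.01 and Pofut2 0.997. Fut4 was 2.64 (1.41 to 5.05) in other barcodes and 0.89 and 1.28 in T cells and macrophages, intervals that included 1.

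At day 21 the shares past 2-fold were 18.9% in T cells, 5.36% in macrophages, 3.62% in tumor, 11.8% in other and 6.12% in all kept barcodes, and 1 member passed it in any class, Fut8 in macrophages. Fut8 was 2.28 (1.79 to 2.93) in macrophages, 1.85 (1.08 to 3.32) in T cells and 1.29 (1.03 to 1.61) in other barcodes. Without the Jchain and Mzb1 barcodes the ratios were 1.09 (0.776 to 1.51), 0.709 (0.343 to 1.46) and 0.860 (0.581 to 1.27), all including 1. With L-fuc, the 13 T cell barcodes with these UMIs held 45 of the 62 Fut8 UMIs (151 CPM, against 22.9 in the rest), and the 79 such macrophage barcodes 123 of 185 (88.0 against 14.2). Jchain and Mzb1 together went from 161 to 3099 CPM in macrophages and from 7.18 to 2474 in T cells between control and L-fuc.

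Fut7 in T cells at day 21 had 3 UMIs with L-fuc and 11 in control, under the 20 required for the comparison, at a ratio of 0.146 (0.0262 to 0.553). Macrophages gave 0.611 (0.322 to 1.12), and all kept barcodes 0.559 (0.331 to 0.920). Pofut2 was lower in macrophages at 0.793 (0.657 to 0.955) and in tumor at 0.827 (0.747 to 0.916). Pofut1 and Fut11 in other barcodes were 0.556 and 0.618. These Pofut2, Pofut1 and Fut11 ratios are with the Jchain and Mzb1 barcodes left in. The intervals of Fut8, Fut10, Fut11 and Pofut1 in tumor included 1.

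**Figure D5:**
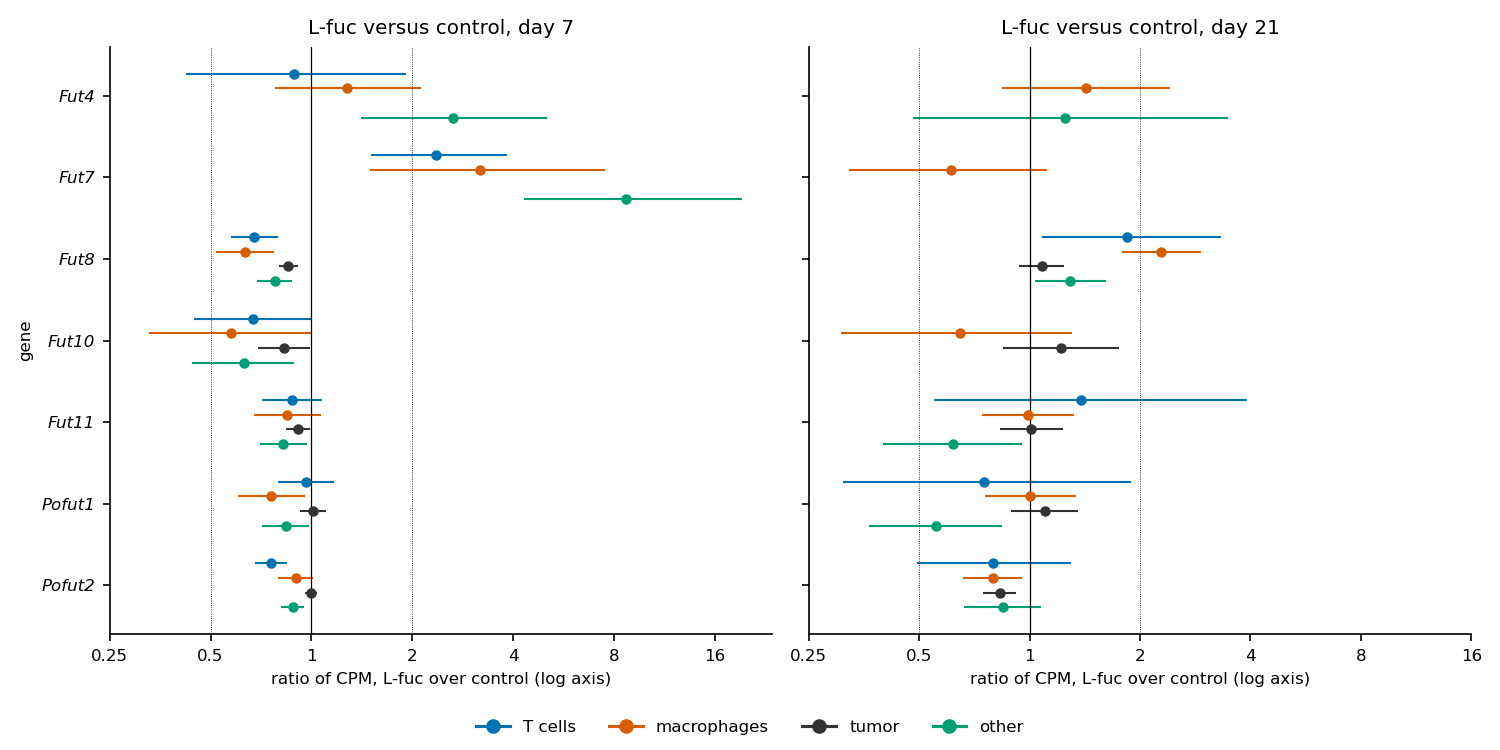
Ratios of CPM, L-fuc over control (log axis), of each member by class at days 7 and 21, with exact 95% intervals that cover counting error only, for members with at least 20 UMIs in the pair of libraries. Dotted lines mark 2-fold. Fut7 is above 1 at day 7 in T cells, macrophages and other barcodes, while at day 21 Fut8 is above 1 in the same classes.

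Control tumors were also compared over time. Between day 0 and day 7, 28.7% of genes were past 2-fold in T cells, 32.1% in macrophages, 17.4% in tumor, 45% in other and 36.4% in all kept barcodes, and median log2 ratios were 0.32, 0.42, 0.09 and 0.48 in the 4 classes. Fut8 was higher at day 7, at 2.05 (1.54 to 2.77) in T cells and 2.21 (1.60 to 3.13) in macrophages. Without tumor-marker barcodes these were 1.47 (1.01 to 2.14) and 1.37 (0.840 to 2.23). Fut10 was 3.46 (1.23 to 13.45) in macrophages, 2.23 (1.23 to 4.51) in tumor and 3.32 (1.11 to 16.3) in other barcodes. These ratios rested on 4, 11 and 3 Fut10 UMIs at day 0, and the macrophage ratio is with tumor-marker barcodes left in. Fut4 in macrophages was lower, at 0.490 (0.274 to 0.882), and 0.521 (0.212 to 1.17) without tumor-marker barcodes.

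Between day 7 and day 21 in control, the shares past 2-fold were 27.8% in T cells, 21.7% in macrophages, 14.7% in tumor, 29.3% in other and 20.6% in all kept barcodes. Fut7 was higher at day 21, at 7.84 (3.48 to 16.5; 4.91 without tumor-marker barcodes) in T cells and 5.23 (2.47 to 12.4; 14.5 without them) in macrophages. The macrophage ratio without them has the same control day 7 UMI count as the L-fuc ratio without them above, too few to size the fold. Fut4 in other barcodes was 6.23 (2.36 to 14.9). Fut8 in other barcodes was 1.95, and 1.25 (0.953 to 1.61) without Jchain and Mzb1 barcodes, while in macrophages it was 0.592, and 1.09 without tumor-marker barcodes. Control day 7 is shared by this comparison, by day 7 against day 0 and by L-fuc against control at day 7, and it is the library with the most tumor-marker RNA in T cells.

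Receptor clonotypes gave a readout that the classes did not use. Pooled over libraries, Fut7 was 5.78 CPM (4.26 to 7.67) in T cells whose receptor was shared by 2 or more barcodes, 5.26 (3.96 to 6.85) in those with a single barcode and 3.34 (2.37 to 4.56) without a receptor. Fut8 had no common order across libraries. In T cells without a receptor it was 9.82, 37.5, 21.5, 10.5 and 98.4 CPM, and in those with a single barcode 15.7, 26.7, 21.2, 53.4 and 16.3, so that the first was the higher by value in 3 of 5 libraries. The 10.5 rested on 1 UMI in 15 barcodes and the 98.4 on 54 UMIs in 28. In the latter library 13 T cell barcodes with at least 3 UMIs of Jchain and Mzb1 held 45 Fut8 UMIs. Their part in the 98.4 was not tested. At L-fuc day 21 no T cell barcode had an expanded receptor, and 28 had no receptor and 22 a single one.

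Genes whose levels ran most like each member's over 20 class sums, among 12113 genes, were named by Pearson's r of log2 levels, as a description, since sums of 1 library share depth and pool. For Fut8 they were Tram1 (0.96), Lman1, Rhobtb1 and Hspa13, for Pofut2 Gnb5 (0.97), Arl1, Selenof, Nat14 and Epdr1, and for Fut11 Mir99ahg (0.94). Fut10 ran most like Slf1 (0.92) and Pofut1 most like Cyb5d2 (0.90). Fut4 and Fut7 have fewer than 500 UMIs, so that their nearest genes, Tbc1d8 (0.93) and Ric8a (0.94), rest on few counts.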

How the data were processed

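Single-cell gene expression was measured in 5 pooled libraries. The authors deposited raw UMI counts per gene and barcode from Cell Ranger on mm10, and the submitters' processing notes name Cell Ranger 3.0 and Seurat 4.0, while the matrix headers name cellranger 7.1.0. Whether intronic reads were counted is not given in the sources used here, so a count may or may not include them. The receptor libraries' deposited clonotype counts were used only to class T cells. Barcodes with at least 500 genes and at most 10% mitochondrial UMIs were kept, doublets were not called, and barcodes meeting several class rules took the first of T cells, macrophages and tumor. Sums were tested with edgeR 4.0.16 (R 4.3.3) as stated, after filterByExpr and trimmed-mean scaling, on simulated data first. Intervals are exact Poisson, binomial or conditional binomial at 95% and cover counting error only. DESeq2 1.42.0, other filters, scalings and left-out libraries are in the closing section. With library as a block, p-values measure how far differences between classes varied over the 5 pools. These pools differ in condition, so spread between replicate pools was not measured. Members and gene lists were chosen with earlier results of these data known. The named genes were the members, up to 4 called genes of a list with the largest fold changes per contrast, and the nearest genes by correlation. Being picked on these data, the named list genes have p-values that are no independent support. Positions are from GENCODE vM21. Individual mice were not analysed here, and a few genes of the lists are not reported here.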

Additional observations from a re-analysis of the deposited data

Results flagged for a closer look

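Fut7 and Fut8 had ratios of L-fuc to control with intervals on opposite sides of 1 at day 7 and day 21, in the groups given here. The difference itself was not tested, since each condition was 1 library. In T cells the Fut7 ratio was 2.36 at day 7 and 0.146 at day 21. The day 21 value rested on 3 against 11 UMIs, under the 20 required for the comparison. Without tumor-marker barcodes the day 7 value was 1.64 (0.886 to 3.30). Over all kept barcodes the Fut7 ratio was 4.78 and 0.559, with a makeup that differed. At day 7 tumor barcodes were 48.3% of control and 31.2% of L-fuc, and T cells 8.36 and 20.1%. The Cpa3, Hdc and Ms4a2 gate held 15 and 134 barcodes. Fut8 ran the other way, with 0.675 and 1.85 in T cells, 0.633 and 2.28 in macrophages, 0.776 and 1.29 in other barcodes, and 0.749 and 1.41 over all kept barcodes. Without Jchain and Mzb1 barcodes, the day 21 Fut8 ratio over all kept barcodes was 1.05 (0.930 to 1.19). By class it was then 0.709 in T cells, 1.09 in macrophages and 0.860 in other barcodes, with intervals that included 1. Without tumor-marker barcodes, the day 7 Fut8 intervals in T cells and macrophages also included 1.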

How the results depend on the processing

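No paired analysis was possible because a condition was 1 pool and the labels tie no mouse to more than 1 library. Leaving out each library gave 2922 to 4235 genes called in T cells against macrophages (4399 with all), the lowest without L-fuc day 7, 6720 to 8103 in T cells against tumor (8220) and 7959 to 8874 in macrophages against tumor (9022). With at least 50 UMIs, 491 genes were past 2-fold between L-fuc and control at day 21, against 881. Of the member results between classes, 306 kept direction and call, 25 gained a call, 2 lost one and 24 turned direction. Those that turned had no call on the main settings. Fut11 and Pofut2 in T cells against macrophages were 0.0749 and 0.21 under scaling by total UMIs. Pofut1 there was -0.0013 at 20% mitochondrial UMIs, -0.039 without ambiguous barcodes, -0.0111 without Jchain and Mzb1 barcodes, -0.0059 with no filter, -0.0166 with no library block, -0.0242 with the other barcodes fitted as a class, and -0.12 to 0.10 on leaving out a library. Fut10 in T cells against tumor was -0.0066 without tumor-marker barcodes, -0.14 under total scaling and -0.15 (without control day 0) to 0.22 on leaving out a library. Pofut1 in T cells against tumor was -0.042, -0.25 and -0.0156 without tumor-marker barcodes, under total scaling and with no filter, and -0.0259 to 0.10 on leaving out a library. In macrophages against tumor it was -0.18, -0.54 and -0.0097, and -0.0376 to 0.0943. The cause was not tested. Fut10 gained a call in T cells against macrophages without ambiguous barcodes (1.12, adjusted p = 0.0281), under total scaling (1.01, adjusted p = 0.0133) and with DESeq2 (0.69, adjusted p = 0.0383). Of the member ratios between conditions, 957 kept their place and 81 moved beyond the interval. In T cells at day 21, Fut4, Fut7 and Fut10 had too few UMIs for the comparison of L-fuc with control.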
